A study of Sorghum propinquum with 2 samples.

Results

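Loci for enzymes of photosynthetic carbon fixation were examined in the rhizome and the shoot of *Sorghum propinquum*, a wild relative of grain sorghum that spreads by underground stems. They were taken from a fixed list of locus IDs, and all 5 of the 5 were present among the 24371 genes of both deposited tables. Sb03g029170, Sb03g029180 and Sb03g029190 are tandem carbonic anhydrase copies, of which Sb03g029170 is listed as the C4 copy. Sb09g019930 is listed as the C4 pyruvate phosphate dikinase (PPDK) and Sb05g003480 as the Rubisco small subunit. These roles come with the list. The tables hold IDs, lengths, reads and RPKM alone, so neither the roles nor the positions could be checked here. Both organs came from 1 unnamed greenhouse clone, untreated as far as the labels say, at the active tillering stage, when side shoots form. There was 1 rhizome library and 1 shoot library, so no value has an error between plants and no p-value is given. The labels do not say how much leaf the shoot sample held, and with no gene names in the tables the 2 organs could not be checked against marker genes.

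Sorghum fixes carbon by the C4 route, in which the work is divided between mesophyll and bundle sheath cells of the leaf. Carbonic anhydrase turns carbon dioxide into bicarbonate in the mesophyll, where phosphoenolpyruvate (PEP) carboxylase takes it up, and PPDK makes new PEP from pyruvate in the mesophyll chloroplast. The carbon travels to the bundle sheath as a C4 acid and is released there for Rubisco, whose small subunits are encoded in the nucleus and its large subunits in the chloroplast. A rhizome is a stem that grows in the soil, mostly without light.

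All 5 genes had higher values in the shoot library, from 10.8-fold for Sb03g029190 to 1636-fold for Sb03g029170. Together they took 34203 of 17153968 shoot reads and 501 of 16862624 rhizome reads. That was 0.199% of the shoot reads (exact 95% binomial interval 0.197% to 0.202%) against 0.00297% in the rhizome (0.00272% to 0.00324%), a 67.1-fold difference (61.4 to 73.4). Intervals here and below are exact 95% intervals for counting error only. They compare the reads of these 2 libraries, and reads may not be independent molecules. In whole organs, fewer cells of a type and less RNA per cell cannot be told apart.

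Of these genes, 4 of 5 were called shoot-higher, which means at least 4-fold higher in the shoot and at least 5 RPKM there (reads for each 1000 bases of a gene, out of 1000000). The same call was made for 9.02% of the 12826 genes with 5 RPKM or more in either library. Sb03g029190 stayed below 5 RPKM in both libraries and could not be called. At a minimum of 1 RPKM it was called too, so 5 of 5 genes were shoot-higher, against 9.25% of 19324 genes. No member was rhizome-higher under either minimum, against 1.8% and 2.73% of genes. The members were chosen for their listed roles in photosynthesis, and the call is a size and not a test. Members and rules were chosen with earlier results of these data known, so the contrast with all genes is not independent of the data.

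**Figure D1:**
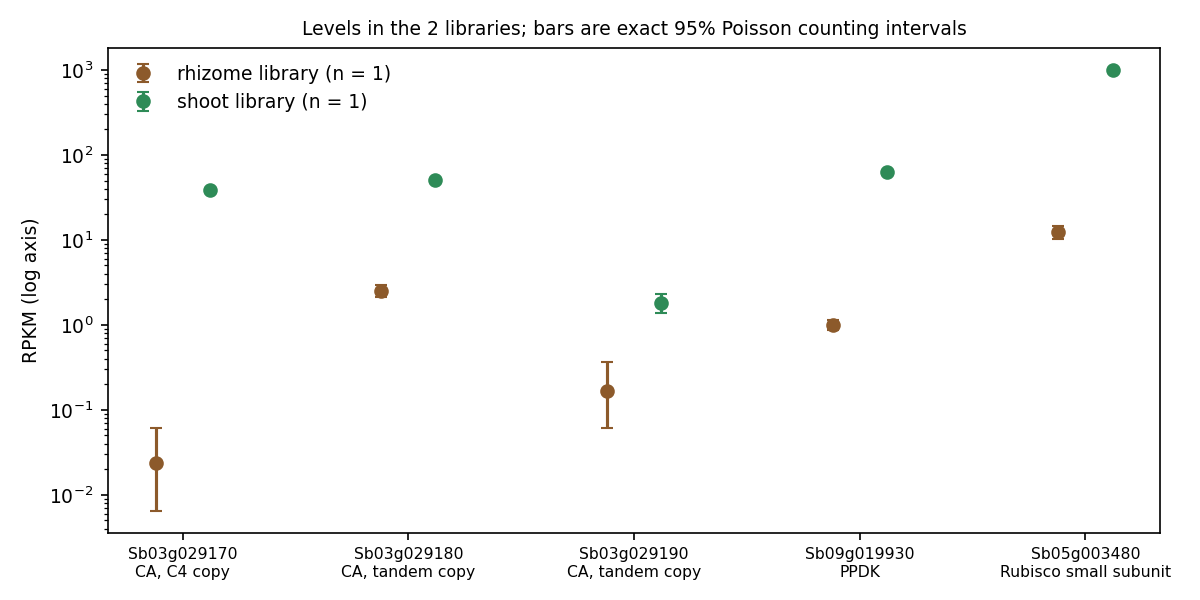
RPKM of each of the 5 genes in the rhizome library (brown) and the shoot library (green), 1 library each, on a log axis, with exact 95% Poisson counting intervals. Each gene has a higher value in the shoot, and the rhizome values run from 0.0238 RPKM for Sb03g029170 to 12.2 RPKM for Sb05g003480.

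Carbonic anhydrase, the first enzyme of the route, showed the most uneven picture. Sb03g029170, the C4 copy, was counted with 4 rhizome reads against 6659 shoot reads. Per length this was 0.0238 RPKM in the rhizome (interval 0.0065 to 0.0611) and 39.0 RPKM in the shoot (38.1 to 40.0). The shoot value was 1636-fold higher (639 to 6008), a wide interval because the rhizome value rests on 4 reads. Among the 12826 genes with 5 RPKM or more in either library, 54 had a higher ratio of shoot to rhizome. Of those 54, 51 had 0 rhizome reads and so no finite ratio. Of the 2205 other listed genes with a shoot RPKM as high, 3 also had a rhizome RPKM as low. That count depends on the deposited length of 9947 bases, since on a shorter gene even fewer reads can give a higher RPKM. For example, Sb01g017040, with a length of 580 bases, had 3 rhizome reads but 0.307 RPKM there, and 193 RPKM in the shoot. It is therefore not among the 3.

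The neighbouring copy, Sb03g029180, was present in both organs. It was counted with 151 rhizome reads and 3124 shoot reads, or 2.50 RPKM (2.12 to 2.93) and 50.9 RPKM (49.1 to 52.7). The shoot value was 20.3-fold higher (17.3 to 24.1). This copy kept 4.92% of its shoot level in the rhizome (4.15% to 5.79%), whereas Sb03g029170 kept 0.0611% (0.0166% to 0.157%). The ratio of Sb03g029170 was 80.5 times that of Sb03g029180 (30.7 to 299).

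The third copy, Sb03g029190, was low in both libraries. It had 6 rhizome reads and 66 shoot reads, or 0.167 RPKM (0.0612 to 0.363) and 1.80 RPKM (1.40 to 2.30). The shoot value was 10.8-fold higher (4.71 to 30.5). Its ratio and that of Sb03g029180 could not be told apart at this depth, with the ratio of Sb03g029180 1.88 times as high and an interval from 0.656 to 4.41.

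The division of reads among the copies changed between the organs. In the rhizome library, Sb03g029180 held 151 of the 161 reads of the 3 copies, or 93.8% (88.9% to 97.0%), and Sb03g029170 held 2.48% (0.681% to 6.24%). In the shoot library Sb03g029170 held 6659 of 9849 reads, or 67.6% (66.7% to 68.5%), and Sb03g029180 held 31.7% (30.8% to 32.6%). The share of Sb03g029190 was 3.73% in the rhizome (1.38% to 7.93%) and 0.670% in the shoot (0.519% to 0.852%). The read shares thus put a different copy first in each organ.

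Per length the order was another one. Sb03g029180 led in both libraries, with 105 times the RPKM of Sb03g029170 in the rhizome (40.1 to 390) and 1.30 times in the shoot (1.25 to 1.36). In the shoot, Sb03g029170 had 2.13 times the reads of Sb03g029180, but its deposited length is 2.78 times as long, at 9947 against 3581 bases. How the authors measured length is not given in the sources used here. The order of these copies in the shoot therefore rests on the deposited lengths, while each copy's ratio between the organs does not. If the long entry of Sb03g029170 covers more than one gene, which the tables do not show, its reads and its ratio would describe all that it covers. Tandem copies are often alike in sequence, and how reads that match more than one copy were counted is not stated, so the division among the copies is uncertain. If each shared read was counted once, which is not stated, their sum does not depend on how reads were divided among the 3. It was 9.55 of every 1000000 rhizome reads and 574 of every 1000000 shoot reads, a 60.1-fold difference (51.5 to 70.7).

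**Figure D2:**
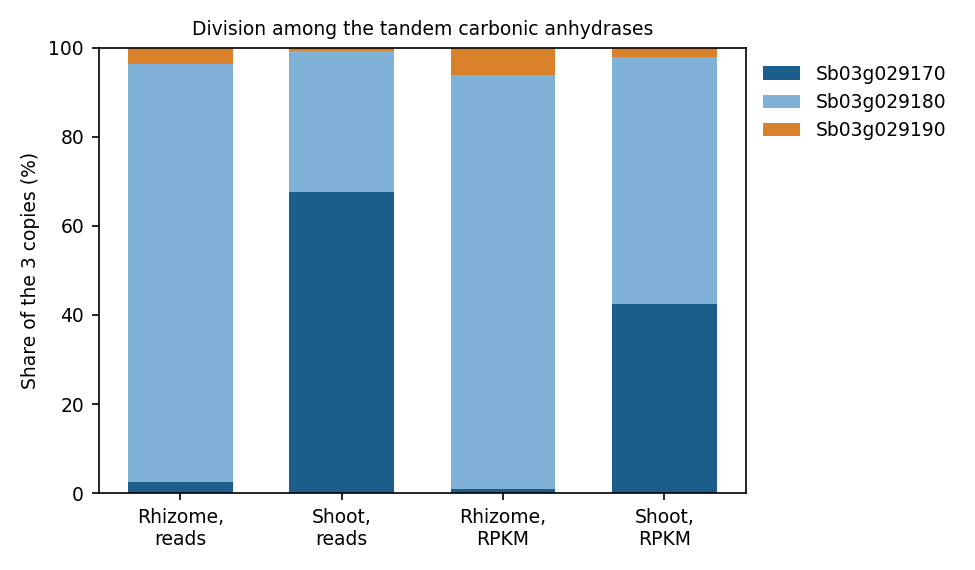
Share (%) of the 3 tandem carbonic anhydrase copies in each library, by reads (left bars) and by RPKM (right bars). Sb03g029180 holds 93.8% of the rhizome reads, and Sb03g029170 holds 67.6% of the shoot reads but 42.6% of the shoot RPKM.

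PPDK, the enzyme that renews the acceptor of the C4 route, had the most reads of the 5 genes in the shoot. Sb09g019930 was counted with 205 rhizome reads and 13282 shoot reads, which ranked it 89 of the 24371 genes by shoot reads. Per length it had 0.999 RPKM in the rhizome (0.867 to 1.15) and 63.6 RPKM in the shoot (62.5 to 64.7), since its deposited length of 12171 bases is longer than that of 98.1% of genes. The shoot value was 63.7-fold higher (55.5 to 73.5). Its 205 rhizome reads put it just under a detection limit of 1 RPKM, so by reads the transcript was well counted in the rhizome and by RPKM it was at the limit.

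PPDK and Sb03g029170 are among the genes with the longest deposited lengths. Among the 275 genes at least as long as Sb03g029170 and with 5 RPKM or more in either library, 6 were shoot-higher, or 2.18%. These 2 genes were among the 6. Sb03g029170 had the highest ratio of shoot to rhizome of the 275 genes and Sb09g019930 ranked 2. This comparison was added after the values were seen and is a description.

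The Rubisco small subunit was by far the most abundant of the 5 per length, in both organs. Sb05g003480 was counted with 135 rhizome reads and 11072 shoot reads, or 12.2 RPKM (10.3 to 14.5) and 987 RPKM (969 to 1005). The shoot value was 80.6-fold higher (68.0 to 96.3). It ranked 33 among all genes by shoot RPKM. In the rhizome it still stood above 73.7% of the listed genes by RPKM, although it had fewer reads than the median gene, 135 against 167, because its length of 654 bases is short. Its rhizome level was 1.24% of its shoot level (1.04% to 1.47%). Of the 32 other genes with a shoot RPKM as high, 1 had a rhizome RPKM as low. Small subunits are encoded by a family of similar genes in many plants, and how reads that match more than one such gene were counted is not stated.

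**Figure D3:**
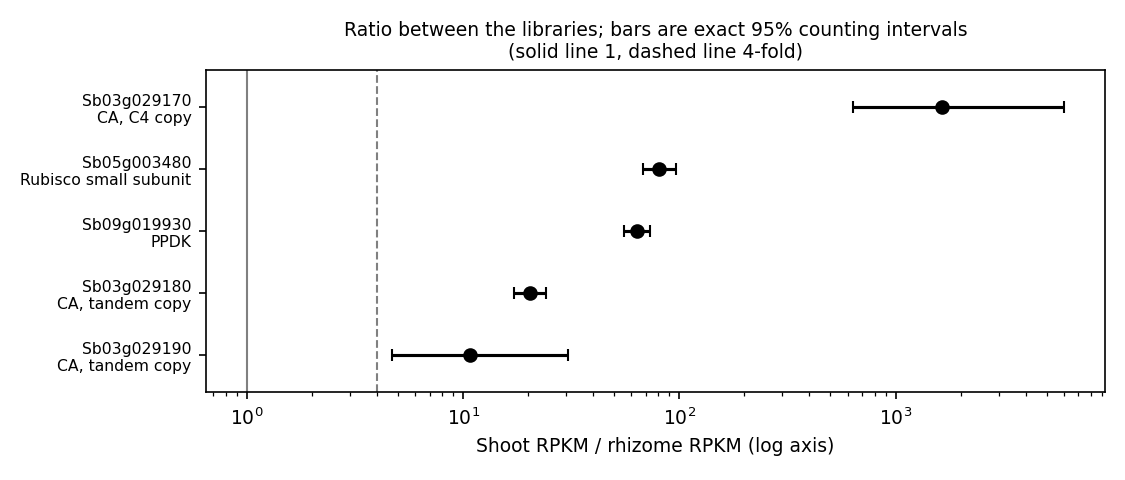
Ratio of shoot RPKM to rhizome RPKM of the 5 genes on a log axis, with exact 95% counting intervals, a solid line at 1 and a dashed line at 4-fold. The 5 intervals lie above 4-fold, and those of Sb09g019930 (55.5 to 73.5) and Sb05g003480 (68.0 to 96.3) overlap.

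The 5 ratios fell into an order with some neighbours close together. From the highest they were Sb03g029170, Sb05g003480, Sb09g019930, Sb03g029180 and Sb03g029190. All 10 pairs were compared by the ratio of their ratios, with intervals not adjusted for the 10 pairs, and 9 intervals lay wholly on one side of 1. Sb03g029170 exceeded the next gene, Sb05g003480, by 20.3 times (7.74 to 75.6). Rubisco small subunit and PPDK were the closest pair of these 9, with the ratio of Sb05g003480 1.27 times that of Sb09g019930 (1.01 to 1.59). Sb09g019930 in turn exceeded Sb03g029180 by 3.13 times (2.51 to 3.90). Between Sb03g029180 and Sb03g029190 the interval included 1.

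The order of the RPKM levels held in 8 of the 10 pairs and turned in the other two. In the shoot the order was Sb05g003480, Sb09g019930, Sb03g029180, Sb03g029170 and Sb03g029190. In the rhizome Sb03g029180 stood above Sb09g019930, at 2.50 times its RPKM (2.02 to 3.10), while in the shoot it stood at 0.799 times (0.769 to 0.831). Sb03g029190 stood above Sb03g029170 in the rhizome, at 7.0 times its RPKM (1.66 to 33.7, from 6 and 4 reads), and far below it in the shoot, at 0.0462 times (0.0357 to 0.0589).

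**Figure D4:**
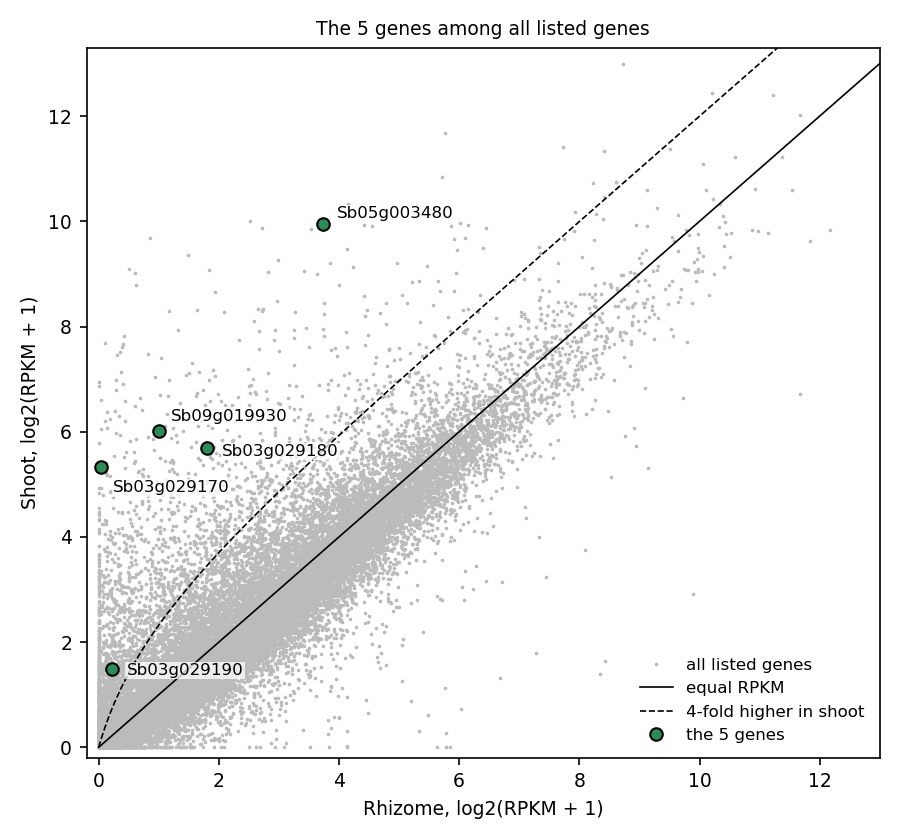
Rhizome (x axis) against shoot (y axis) levels of all 24371 listed genes on the log2(RPKM + 1) scale, 1 library each, with the 5 genes marked, a solid line at equal RPKM and a dashed curve where the shoot RPKM, without the added 1, is 4 times the rhizome RPKM. All 5 lie above the dashed curve, Sb03g029190 at a low level in both libraries.

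The genes listed next to these loci were mostly below 5 RPKM in both libraries. The 3 listed IDs on each side of the carbonic anhydrase array, of PPDK and of the Rubisco small subunit gave 18 flanking genes. Of these, 7 reached 5 RPKM in either library and 0 of the 7 were called, against 9.02% of all such genes for the shoot and 1.8% for the rhizome, so few calls would come from 7 genes at these shares. The other 11 lay below 5 RPKM and could not be called. At a minimum of 1 RPKM, 12 flanking genes could be called, of which 1 was shoot-higher and 1 rhizome-higher. The shares of all genes at this minimum were 9.25% and 2.73%, so few calls would come from 12 genes too. The shoot-higher one lay beside PPDK, with 9 rhizome reads and 51 shoot reads, at 5.57 times the rhizome level in the shoot (2.72 to 12.9). The rhizome-higher one, Sb05g003490, lay beside the Rubisco small subunit, with 31 rhizome reads and 7 shoot reads, at 0.222 times (0.0825 to 0.514). After PPDK, Sb09g019950 stood at 0.275 times (0.208 to 0.359) and Sb09g019960 at 0.399 times (0.345 to 0.462). Beside the carbonic anhydrases, the last of the 3 genes after the array stood at 3.38 times (2.68 to 4.30), with 3.53 RPKM in the rhizome and 11.9 RPKM in the shoot. Values of the 18 flanking genes ran from 0.0294 to 31.9 RPKM in the rhizome and from 0 to 12.7 RPKM in the shoot. By the counting interval alone, 4 were higher in the shoot, 5 were higher in the rhizome and 9 included a ratio of 1. On the border of the carbonic anhydrase array, Sb03g029160 had 73 rhizome reads and 57 shoot reads, at 0.768 times the rhizome level in the shoot (0.533 to 1.10). On the other border, Sb03g029200 had 6 rhizome reads and 12 shoot reads, at 1.97 times (0.683 to 6.38). ID order stands in for position here, and genes with no reads in both libraries are not among the listed ones.

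**Figure D5:**
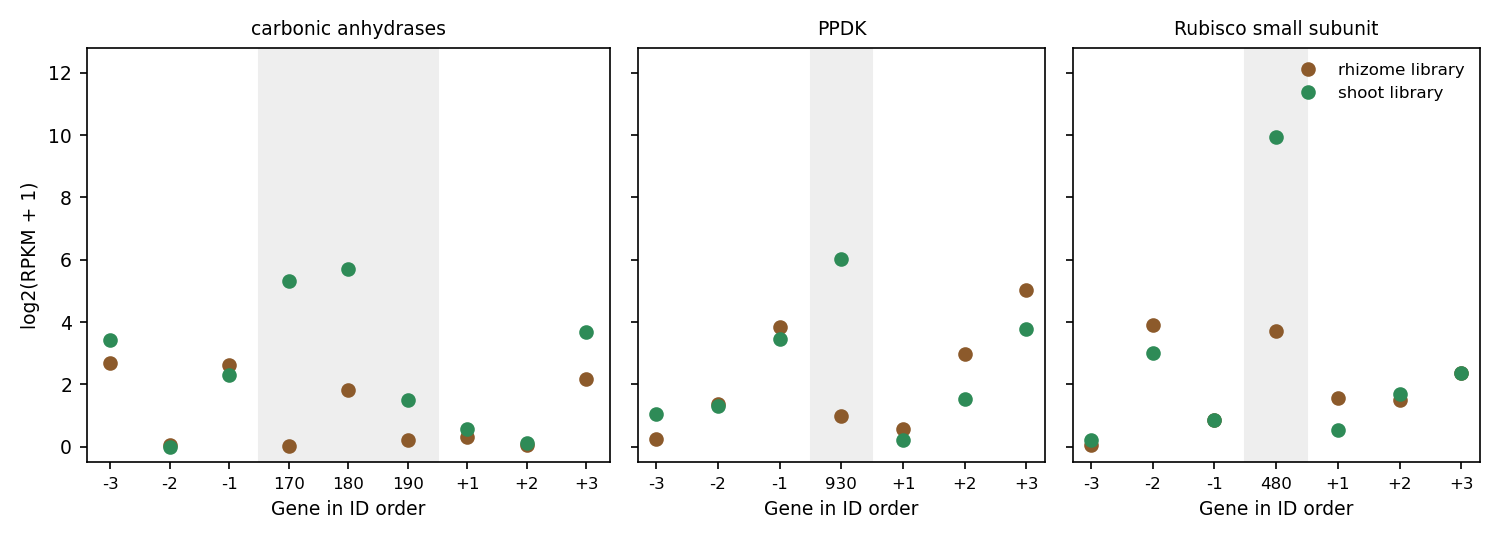
Levels on the log2(RPKM + 1) scale in the rhizome library (brown) and the shoot library (green) of the carbonic anhydrases, PPDK and the Rubisco small subunit (grey bands, labelled by the last digits of the ID) and of the 3 listed genes before and after each. The flanking genes stay at or below 31.9 RPKM in the rhizome and 12.7 RPKM in the shoot.

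Other genes with a like pattern were sought by the distance to each member in log2(RPKM + 1) of the 2 libraries. No gene name goes with the IDs, so they are counted and not named, and 2 libraries give a weak measure of likeness. Within a distance of 0.5 there were 15 genes for Sb03g029170, 25 for Sb03g029180, 13 for Sb09g019930 and 2 for Sb05g003480, while the low Sb03g029190 had 523. The nearest gene to Sb05g003480 had 12.2 RPKM in the rhizome and 917 RPKM in the shoot. The nearest to Sb09g019930 had 1.14 and 67.6 RPKM, and the nearest to Sb03g029170 had 0.0449 and 39.0 RPKM. No member was among the nearest pair of genes of another member.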

How the data were processed

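Total RNA of 1 rhizome and 1 shoot sample was extracted with TRIzol and sequenced as Illumina libraries, per the labels' protocols. For the aligner, counting program, genome build, annotation and strand use, nothing is stated in the sources used here. The deposited read counts are whole reads per gene, and the RPKM values deposited by the authors equalled those recomputed from the counts, the deposited lengths and the count totals within 1e-06. The libraries held 16862624 (rhizome) and 17153968 (shoot) reads in genes, so 3 reads, the one-sided 95% limit for a count of 0, equal 0.178 and 0.175 reads per 1000000.

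With 1 library per organ no count model can be tested. Ratios have exact conditional binomial (Clopper-Pearson) 95% intervals, ratios of ratios exact conditional odds-ratio intervals, and levels Poisson intervals. Calls used 4-fold and 5 RPKM across all genes. The named genes were all members, the 3 listed IDs on each side of them (most given as ranges) and the 2 genes nearest in level (counted where no name was known). The members and rules were chosen with earlier results of these data known. Alternatives were other folds, minimums, pseudocounts, scalings (TMM by edgeR 4.0.16 in R 4.3.3), summed copies, and shares and ranks on the other scale. Product-name lists could not be filled. The code was tested on simulated Poisson counts. Intervals were computed with scipy 1.17.1 and tables with pandas 2.3.3 under Python 3.11.15.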

Additional observations from a re-analysis of the deposited data

How the results depend on the processing

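All 5 genes were higher in the shoot under each of the 33 alternative log2 ratios of rhizome to shoot, of which 9 left the counting interval of the deposited value. An equal pseudocount or a sum of shoot-higher copies cannot reverse a direction, so for these alternatives the direction was fixed in advance. Each scaling added 1 common shift, from -0.0028 to -0.22, to every log2 ratio. These shifts all went further toward the shoot, so the scalings could not reverse a member either. Of the 33, 32 stayed past 4-fold, and Sb03g029190 with a pseudocount of 1 RPKM did not. With a pseudocount of 1 RPKM the ratios were -5.29 for Sb03g029170 (deposited value -10.68), -3.89 for Sb03g029180 (-4.35), -1.27 for Sb03g029190 (-3.43) and -5.01 for Sb09g019930 (-5.99). A pseudocount shrinks ratios of low values by its construction. With 0.1 RPKM, Sb03g029170 had -8.30. Summed, the 3 carbonic anhydrase copies had -5.91, a single value in place of those of Sb03g029170, Sb03g029180 and Sb03g029190. Median-of-ratios scaling moved Sb09g019930 to -6.21, and every log2 ratio by -0.22. Leaving the 5 genes out of the totals, an alternative added after the values were seen, moved them by -0.0028. By RPKM in place of reads, the shoot shares of the copies were 42.6% (from 67.6%) for Sb03g029170, 55.5% (from 31.7%) for Sb03g029180 and 1.97% (from 0.670%) for Sb03g029190. The number of shoot-higher members was 4 under 8 alternatives and 5 with a minimum of 1 RPKM, to be read beside the all-gene counts below. Of 20 alternative ranks, 10 left the range that counting error gives, 8 of them ranks by reads. Over all genes, the 4-fold rule called 1157 genes in favour of the shoot and 231 in favour of the rhizome. The 2-fold rule called 2156 and 1412, and the 8-fold rule 670 and 97. A minimum of 1 RPKM gave 1787 and 528, one of 20 RPKM 578 and 86, and an interval wholly past 4-fold 949 and 149. Settings for pathway lists were not run because the IDs carry no product names. No paired analysis was possible because there was 1 library per organ. For the same reason none could be left out, and variation between plants is unknown.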
